A study of Mus musculus with 2 samples.

Results

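The 10 genes described here control the entry of a cell into the cell cycle through G1. They are Cdkn1a, Cdkn1b, Cdkn2a, Cdkn2b, Cdkn2c and Cdkn2d, which encode inhibitors of cyclin-dependent kinases (CDKs), Ccnd2 and Ccnd3, which encode D-type cyclins, and the kinase genes Cdk4 and Cdk6. Members were taken as the non-control probes whose gene name in the scanner files is one of these 10 symbols, which gave 18 of 55676 probes and 10 of 34960 gene names. RNA came from regulatory T (Treg) cells, the CD4 T cells that restrain immune responses, of Nr4a-TKO mice and of wild-type mice, both at an age of 5 weeks. Each genotype had 1 sample, hybridised to 1 one-colour Agilent mouse array, so there are no replicates and no difference below was tested. How Nr4a1, Nr4a2 and Nr4a3 were altered, in which cells, how many mice were pooled and their sex are not in the labels. Nr4a proteins are nuclear receptors that T cells induce on stimulation of the antigen receptor.

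D-type cyclins are made when a resting T cell receives growth signals. They bind CDK4 and CDK6, and the active kinases phosphorylate the retinoblastoma protein, which releases E2F factors and lets S phase begin. INK4 inhibitors, from the Cdkn2 genes, bind CDK4 and CDK6 alone and keep them from cyclin D. CIP/KIP inhibitors, among them p21 from Cdkn1a and p27 from Cdkn1b, bind cyclin and kinase together and block CDK2 most strongly.

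Of the 10 genes, 9 were measured, that is, well above background on both arrays by the scanner's own call, and Cdkn2b was so on neither array. Cdkn1a was higher in Nr4a-TKO Treg cells by 2.51-fold, and it was the only 1 of the 9 measured members past a size of 2-fold. As background, 23493 gene names passed the same call, and of these 6.22% differed by 2-fold or more, 3.15% upward in Nr4a-TKO and 3.06% downward. At a size of 1.5-fold, Cdkn1a and the INK4 gene Cdkn2d were higher and Ccnd2 was lower, against 8.36% of gene names higher and 7.36% lower at that size. Cdkn2d passed this size narrowly, at 1.53-fold, and fell below it under some other ways of processing. Cdk4, Cdk6, Ccnd3, Cdkn1b, Cdkn2a and Cdkn2c differed by less than 1.5-fold. Of the 9, 6 were higher and 3 lower by any amount, with a median log2 difference of 0.14, and of all gene names 59.6% were higher, with a median of 0.08. All differences are log2 values of Nr4a-TKO minus wild-type, after each array was scaled to its 75th percentile of signal.

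Sequence is shown for both starts of Cdkn1a, the member with the largest difference, for the Cdk4 and Ccnd3 promoters, which held more than 1 match to the motifs searched, and for the probe behind the lower signal of Ccnd2. A RefSeq table on build GRCm38.p6 held windows for 9 of the 10 members, 13 windows in all, and the 250 bases before each start were searched on both strands. The motifs were AAAGGTCA, to which an Nr4a monomer binds, CACGTG, the E-box bound by MYC and MAX, and TGTTTAC, bound by FOXO factors. Also searched was a pair of CATG runs with any 6 bases between them, a form of the core letters of a p53 site. Other forms of that core were not searched. Cdkn1a has 2 starts in the table, given here with the p53 cores in capitals. The first lies at chr17:29090729-29090978 and the second at chr17:29093519-29093768, both on the plus strand.
Cdkn1a first start: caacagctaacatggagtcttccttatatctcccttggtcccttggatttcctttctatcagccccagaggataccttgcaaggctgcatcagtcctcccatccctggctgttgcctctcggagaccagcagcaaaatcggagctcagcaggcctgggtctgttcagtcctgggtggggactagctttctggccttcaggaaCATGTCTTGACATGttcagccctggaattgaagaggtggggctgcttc
Cdkn1a second start: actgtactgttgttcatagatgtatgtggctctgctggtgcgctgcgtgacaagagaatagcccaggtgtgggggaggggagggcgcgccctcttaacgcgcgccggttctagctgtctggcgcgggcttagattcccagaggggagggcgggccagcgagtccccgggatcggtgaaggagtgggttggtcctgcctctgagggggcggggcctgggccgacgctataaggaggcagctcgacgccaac
The pair of cores lay 48 to 35 bases before the first start, and the window of the second start held none of the 4 motifs. Such a pair was found in 0.49% of 32851 promoter windows and in no other window of the members. The table does not name the transcript of each start.

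The Cdk4 window, at chr10:127063285-127063534 on the plus strand, held 4 E-boxes, shown in capitals, which begin 172, 118, 98 and 11 bases before the start. The Ccnd3 window at chr17:47504801-47505050, also on the plus strand, held the Nr4a motif, read on the other strand as TGACCTTT, 97 to 90 bases before the start, and a FOXO motif 243 to 237 bases before it. These capitals do not overlap in either window.
Cdk4: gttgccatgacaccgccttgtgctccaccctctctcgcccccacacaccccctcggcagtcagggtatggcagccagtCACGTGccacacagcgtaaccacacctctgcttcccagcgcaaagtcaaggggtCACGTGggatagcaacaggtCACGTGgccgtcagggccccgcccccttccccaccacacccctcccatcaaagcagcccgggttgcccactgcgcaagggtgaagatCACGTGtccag
Ccnd3: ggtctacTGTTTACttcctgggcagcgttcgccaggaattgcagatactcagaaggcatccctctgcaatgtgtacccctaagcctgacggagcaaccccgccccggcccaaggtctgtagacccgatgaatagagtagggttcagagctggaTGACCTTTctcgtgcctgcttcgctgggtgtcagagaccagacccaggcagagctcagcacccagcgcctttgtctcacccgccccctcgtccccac
Of all windows, 6.02% held an E-box and 0.0213% held 4 or more, 1.34% held the Nr4a motif and 3.17% the FOXO motif. Cdk6 held 1 E-box, and the other member windows held none of the 4 motifs. A match is a description of these letters, not a site of binding.

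**Figure D1:**
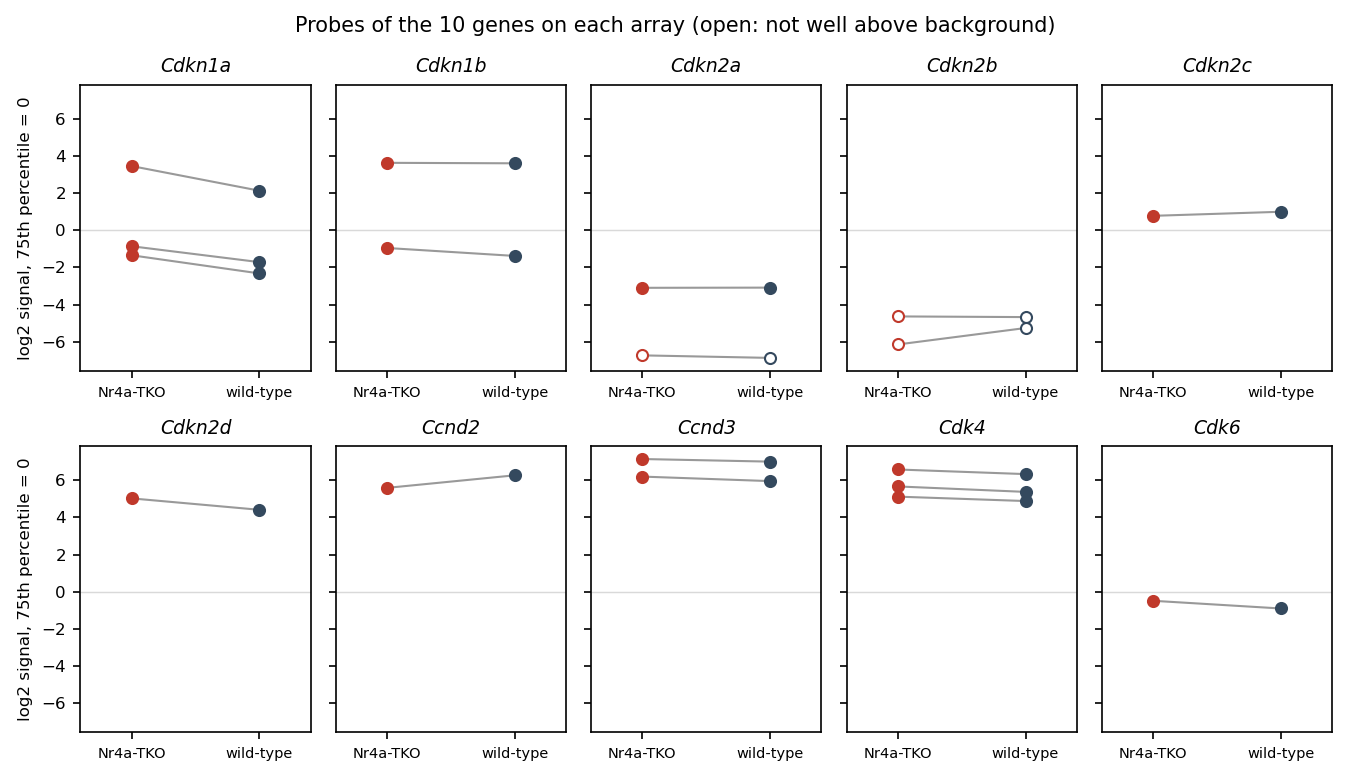
Scaled log2 signal (vertical axis, the array's 75th percentile at 0) of each probe of the 10 genes on the Nr4a-TKO array (left, red) and the wild-type array (right, dark), with a line joining the values of a probe and open points where it was not well above background. The 3 Cdkn1a probes lie higher on the Nr4a-TKO array, the Ccnd2 probe lies lower, and both Cdkn2b probes are open on both arrays.

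The arrays and their labels were also checked. Signal cleared background at 63.9% of the Nr4a-TKO probes and at 66.0% of the wild-type probes, 0 spots were saturated, and the arrays shared slide and scan time. Nr4a3 was 7.04-fold lower in Nr4a-TKO, or 3.26-fold with normexp background correction, Nr4a2 was 2.54-fold higher, and Nr4a1 was at 0.06, a sign that 4 of 7 other scalings turned, so these probes check only part of the label. Foxp3, which defines Treg cells, was 17.2-fold lower in Nr4a-TKO, or 10.3-fold with normexp, and all 8 T and Treg cell markers were well above background on both arrays and lower in Nr4a-TKO, Ikzf2 by 3.07-fold and Ctla4 by 2.29-fold. The file's XIST probe was 380-fold higher in Nr4a-TKO, or 160-fold with normexp, and the Y-linked Ddx3y 3.63-fold lower in Nr4a-TKO, so the sex of the mice and the genotype cannot be told apart. Ddx3y was still well above background in Nr4a-TKO, at a scaled log2 signal of 0.38 against 2.24 in wild-type. A plain contrast of female and male is therefore not shown.

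Markers of 6 other cell types that a sort could hold were also compared, as the sum of their signals in units of the array's 75th percentile. B cell markers summed to 1.76 in Nr4a-TKO and 1.13 in wild-type, with 4 of 6 well above background on each array, and Ms4a1 on neither. Of these 4, only Cd79b passed 2-fold, and the other 3 had log2 differences from 0.05 to 0.30. CD8 and NK cell markers summed to 3.18 in Nr4a-TKO and 5.26 in wild-type, with 4 of 6 on each array, and Klrb1c and Klrk1 on neither. Macrophage and dendritic cell markers summed to 1.52 in Nr4a-TKO and 1.35 in wild-type, with 4 of 7 well above background in Nr4a-TKO and 5 in wild-type, and Cd14 and Itgax on neither. The T and Treg markers summed to 384 in Nr4a-TKO and 541 in wild-type, and since signals of different probes cannot be set against each other, each sum is read only between the genotypes. A sum also follows its brightest genes, so its direction need not hold for the other genes of a list. Granulocyte and mast cell markers summed to 3.04 in Nr4a-TKO and 1.83 in wild-type, with 3 of 6 well above background in Nr4a-TKO and 5 in wild-type and Cpa3 on neither. Ly6g was 6.72-fold higher, and Mpo was 7.76-fold lower in Nr4a-TKO, or 3.04-fold with normexp. Of the 3 genes of this list measured on both arrays, 1 was higher and 2 were lower. The higher sum rests on Ly6g, at a scaled log2 signal of 1.02 in Nr4a-TKO and -1.73 in wild-type. Erythroid and platelet markers summed to 0.27 in Nr4a-TKO and 0.22 in wild-type, with 2 of 5 on each array, and Alas2 and Pf4 on neither. Epithelial and stromal markers summed to 0.72 in Nr4a-TKO and 0.49 in wild-type, with 4 of 6 in Nr4a-TKO and 3 in wild-type, and Krt8 and Pdgfrb on neither. Of the 3 measured on both arrays, Krt18 was higher and 2 were lower. Cd79b was 2.51-fold and Krt18 2.43-fold higher in Nr4a-TKO, Krt18 by 1.91-fold with normexp, S100a8 and S100a9 were at least 2.50-fold and 2.89-fold lower, and Col1a1 was at least 2.16-fold higher, each of these last 3 as a bound because 1 array was not well above background. Their part in the results on the cell cycle genes was not tested.

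Of the CIP/KIP inhibitors, Cdkn1a differed by over 2-fold and Cdkn1b did not. Cdkn1a encodes p21, an inhibitor of cyclin and CDK complexes that p53 is known to induce on DNA damage. Its brightest probe, which the files list for both RefSeq variants, lies at chr17:29237377-29237436 on build mm9 and was spotted 10 times on each array. The 10 usable spots of the Nr4a-TKO array gave signals from 7722 to 8756 with a median of 8335, against 3494 to 3770 with a median of 3627 over the 9 usable spots of the wild-type array. The lowest Nr4a-TKO spot was therefore well above the highest wild-type spot, as the plot of single spots shows. On the scaled log2 axis the means were 3.46 in Nr4a-TKO and 2.13 in wild-type, a difference of 1.33, and the spots had an SD of 0.050 in Nr4a-TKO and 0.042 in wild-type. Spots of 1 array hold the same RNA, so this SD covers technical error and no variation between mice.

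**Figure D2:**
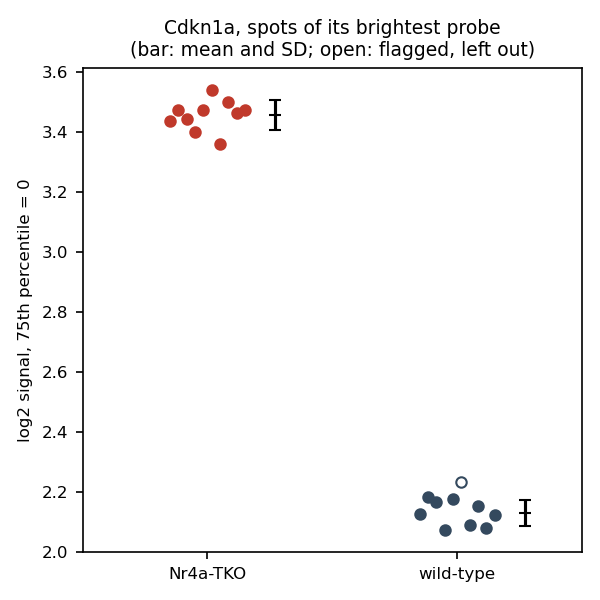
Scaled log2 signal (vertical axis, the array's 75th percentile at 0) of each spot of the brightest Cdkn1a probe on the Nr4a-TKO array (left) and the wild-type array (right). Bars give the mean and SD over the 10 and 9 usable spots, the open point is a spot the scanner called an outlier, which was left out, and the Nr4a-TKO spots, from 3.36 to 3.54, all lie above the wild-type spots, from 2.07 to 2.18.

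The other 2 Cdkn1a probes sample other parts of the locus. The probe that the files list for RefSeq variant 2 alone, at chr17:29227986-29228045, had a signal of 415 in Nr4a-TKO and 253 in wild-type, which is 1.81-fold higher. A probe listed for an Ensembl transcript, at chr17:29235299-29235358, had 296 in Nr4a-TKO and 166 in wild-type, 1.97-fold higher. All 3 probes were thus higher in Nr4a-TKO, and under 7 other scalings the brightest stayed between 1.05 and 1.33 on the log2 scale. With normexp background correction the 3 probes, from brightest to dimmest, were higher by 2.49-fold, 1.59-fold and 1.73-fold. Gene names were also ranked into 10 groups by mean signal, and of the 2349 in the group of Cdkn1a 2.0% differed by at least as much in either direction.

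Cdkn1b encodes p27, which holds resting T cells in G1 and is degraded when they enter the cycle. Its brighter probe, at chr6:134875424-134875483, had a signal of 9323 in Nr4a-TKO and 10115 in wild-type, which after scaling was a log2 difference of 0.026. The scanner software's own error estimate for the difference of a single spot was 0.20, so the arrays were within that error, and 5 of 7 other scalings turned the direction. The second probe, at chr6:134873606-134873665, had 389 in Nr4a-TKO and 319 in wild-type, a difference of 0.43. The probes of Cdkn1b therefore did not agree in size, at 1.02-fold and 1.35-fold, and their mean gave 0.23. In bulk RNA, fewer cells that express a gene and less of its RNA per cell cannot be told apart.

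The INK4 inhibitors differed among themselves. Cdkn2d, which encodes p19INK4D, an inhibitor of CDK4 and CDK6, had a signal of 24547 in Nr4a-TKO and 17707 in wild-type at its only probe, at chr9:21092934-21092993. That is 1.53-fold higher, a log2 difference of 0.61 with a scanner error of 0.20. Across the other scalings it stayed between 0.34 and 0.61, and 8.60% of gene names of like signal differed by at least as much. With normexp background correction it was 1.49-fold higher and with spike-ins as the centre 1.27-fold, both under 1.5-fold. Cdkn2c, which encodes p18INK4C, had 1290 in Nr4a-TKO and 1658 in wild-type at its only probe, at chr4:109333508-109333567. Its log2 difference of -0.22 was about the size of the scanner error of 0.20. Under the 7 other scalings it ran from -0.49 to -0.22. Each of these moved the median gene downward, from -0.0014 with the deposited log2 values to -0.27 with spike-ins. A lower gene could therefore hardly turn direction, and the kept sign is no measure of stability. Cdkn2d and Cdkn2c thus lay on opposite sides of 0.

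Cdkn2a and Cdkn2b are neighbours on chromosome 4. Cdkn2a encodes p16INK4A and, in another reading frame, the p53 activator ARF, and the locus is held silent by Polycomb proteins in most young cells. The brighter Cdkn2a probe, at chr4:88920405-88920464, had a signal of 87.9 in Nr4a-TKO and 97.8 in wild-type, against a lowest signal among probes well above background of 29.3 on the Nr4a-TKO array and 28.1 on the wild-type array. After scaling these were a log2 difference of -0.010 with a scanner error of 0.25, so no difference was detectable at this signal. The second Cdkn2a probe, at chr4:88920543-88920602, did not clear background in Nr4a-TKO or wild-type and held the scanner's surrogate value in both. Both Cdkn2b probes, at chr4:88952720-88952779 and chr4:88952276-88952335, were likewise not above background in either genotype, with signals of 30.2 and 10.6 in Nr4a-TKO and 32.6 and 21.7 in wild-type. Cdkn2b encodes p15INK4B, which TGF-beta is known to induce in epithelial cells, and no fold is given for it.

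The D-type cyclins showed opposite signs in the setting used here. Cyclin D2 is the D-type cyclin that T cells make early after stimulation. Ccnd2 had a signal of 36335 in Nr4a-TKO and 64140 in wild-type, which after scaling was 1.60-fold lower, a log2 difference of -0.68 with a scanner error of 0.20. Under 7 other scalings the log2 difference ran from -0.95 to -0.68, but each of them moved the median gene downward. The direction of a lower gene could hardly turn, so the kept sign is no measure of stability. Of 2350 gene names of like signal, 3.32% differed by at least as much. Only 1 probe stands behind it, at chr6:127098696-127098755 on the minus strand of build mm9, and its 60 bases, as deposited, were as follows.
Ccnd2 probe: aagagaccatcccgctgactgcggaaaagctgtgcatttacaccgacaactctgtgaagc
The files give no exon or UTR for this or any other probe.

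Cyclin D3 supports the expansion of thymocytes and lymphocytes. Ccnd3 had a signal of 106651 in Nr4a-TKO and 106870 in wild-type at its brighter probe, at chr17:47736579-47736638, and 55361 in Nr4a-TKO and 51656 in wild-type at the other, at chr17:47736267-47736326. These were log2 differences of 0.14 and 0.24, close to the scanner error of 0.20, and 3 of 7 other scalings turned the direction of the brighter probe and 1 that of the other. The signal of Ccnd2 was thus lower in Nr4a-TKO under each scaling run, while the sign of Ccnd3 depended on the scaling. Because the other scalings all moved the median gene downward, this contrast does not compare how stable these genes are.

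Both kinase genes were nominally higher in Nr4a-TKO. Cdk4 had 3 probes, with signals of 72171, 38342 and 26203 in Nr4a-TKO and 67101, 34543 and 24552 in wild-type. The 3 log2 differences were 0.25, 0.29 and 0.24, so the probes gave like values. They lie at chr10:126504279-126504338, chr10:126504174-126504233 and chr10:126503162-126503221, and the first is also listed for a second RefSeq accession, so it may read another transcript as well. With spike-in controls as the centre, the brightest and the dimmest turned to -0.026 and -0.037, and the other was at 0.019. Cdk6, at chr5:3522106-3522165, had a signal of 538 in Nr4a-TKO and 445 in wild-type, a log2 difference of 0.42 with a scanner error of 0.21, and stayed between 0.14 and 0.44 under the other scalings.

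**Figure D3:**
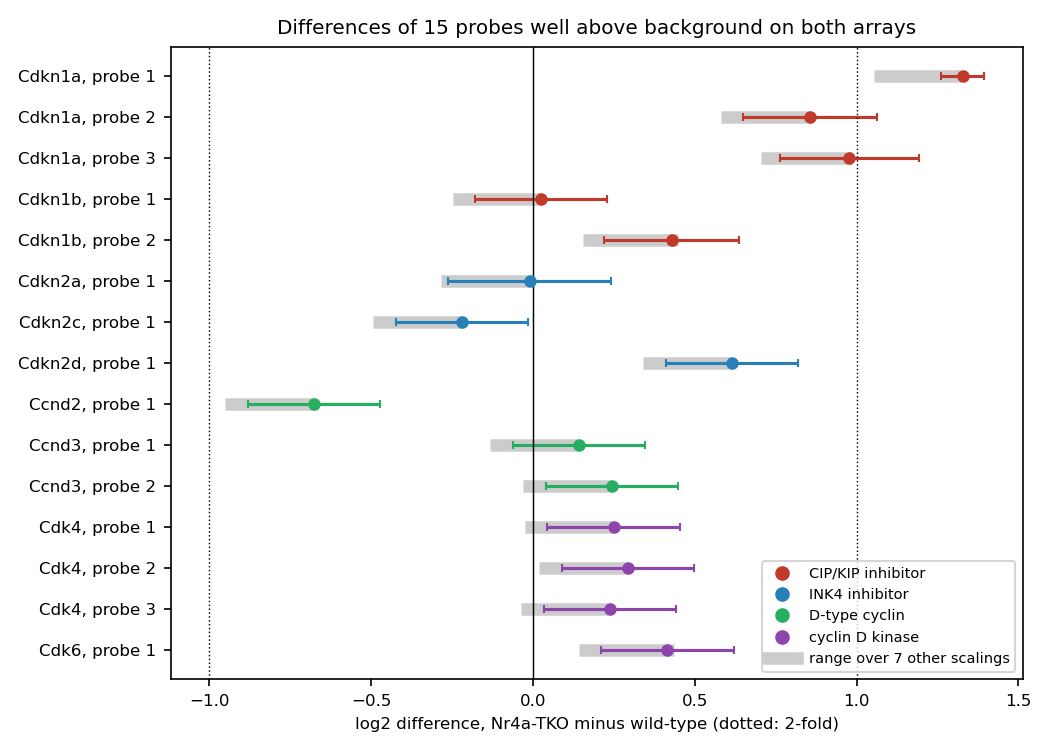
Log2 difference of Nr4a-TKO minus wild-type (horizontal axis) for the 15 probes well above background on both arrays, coloured by role, with probes of a gene numbered from brightest. Error bars are the scanner software's own error estimate, grey bars the range over 7 other scalings and dotted lines 2-fold, which the brightest Cdkn1a probe passes at 1.33 and the Ccnd2 probe, at -0.68, does not reach.

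**Figure D4:**
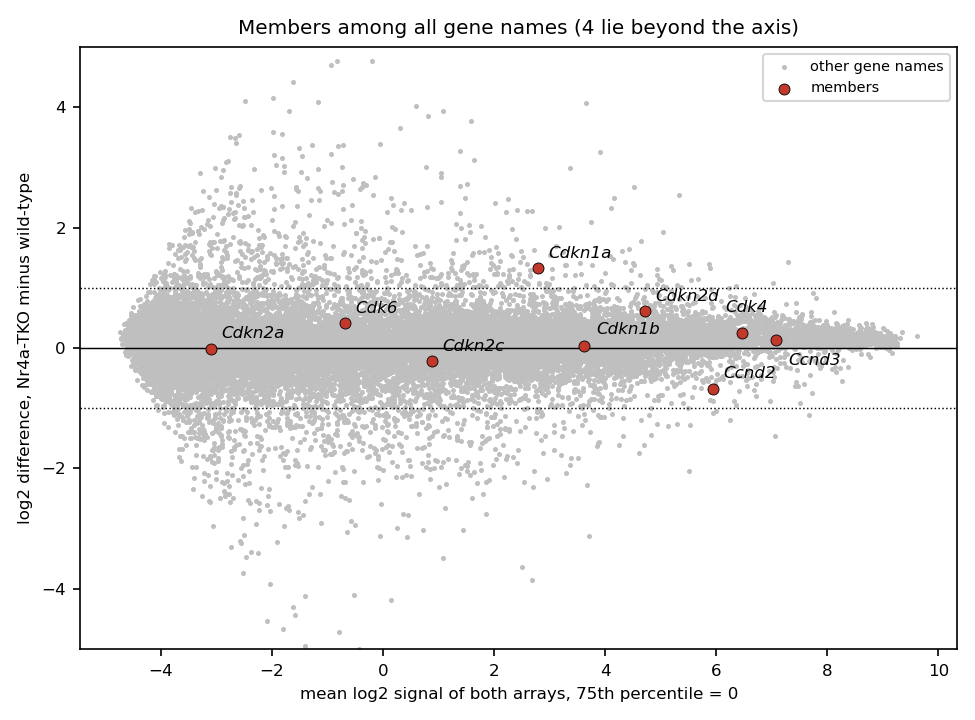
Log2 difference of Nr4a-TKO minus wild-type (vertical axis) against the mean scaled log2 signal of both arrays (horizontal axis) for 23493 gene names, with the 9 measured members in red and 2-fold as dotted lines. Cdkn1a lies above the upper line, Ccnd2 lies near the edge of the cloud at its signal, and the other measured members lie inside it.

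The partners of these genes were compared through 11 lists of 96 genes, of which 91 were measured on both arrays. In all, 4 of the 91 (4.40%) passed 2-fold upward in Nr4a-TKO and 2 (2.20%) downward, against 3.15% and 3.06% of all gene names, so the share past 2-fold was close to that of the array as a whole. Downstream of CDK4 and CDK6, none of the 7 pocket protein and MuvB genes passed 2-fold, with Rb1, the retinoblastoma gene, at -0.38, Lin54 at 0.31 and Lin52 at -0.15, with its probes between -0.22 and 0.07. None of the 10 E2F and DP genes did, with a median of 0.04 whose sign turned under some scalings, and E2f4 at 0.55, E2f8 at 0.48 and E2f5 at 0.34. Of the cyclin E, cyclin A and CDK2 genes, 4 of 5 were measured and none passed 2-fold, with Ccna2, the S phase cyclin, at 0.76 and Cdk2 at -0.35. Log2 differences among these direct partners thus lay between -0.38 and 0.76.

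Genes that act on the inhibitors and cyclins differed little as well. The 5 CDK-activating kinase and chaperone genes had a median of 0.22, which came to -0.05 with spike-ins as the centre, and none passed 2-fold. The 10 genes of inhibitor and cyclin turnover had a median of 0.22, or -0.05 with spike-ins. Skp1a, with a dim signal, was at 0.61, which is 1.52-fold, but 1.22-fold with normexp. Cks1b, a cofactor in the degradation of p27, was at 0.50, which is 1.41-fold, but 1.27-fold with normexp. Fbxw7 was at 0.28, although another Fbxw7 probe was at -0.28. The Polycomb list had 9 of 10 genes measured and none past 2-fold, with Eed at 0.41 and Suz12, both subunits of the complex that methylates histone H3, at 0.28.

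Of the 18 genes of p53 and its targets, 17 were measured, and 2 (11.8%) were at least 2-fold higher, against 3.15% of all gene names. This share rests on 2 genes and was not tested. None was at least 2-fold lower, and the median was 0.18, or -0.09 with spike-ins. Plk2, a kinase gene, was 2.87-fold higher and Sesn2, a stress-induced sestrin gene, 2.19-fold higher in Nr4a-TKO, while Trp53inp1 was 1.92-fold lower and Mdm4 was at 0.58 on the log2 scale. Trp53 itself, at -0.11, and its targets Mdm2, at 0.18, and Bax, at 0.10, are named here after their values were seen, and the last 2 turned direction under 1 and 4 of the 7 other scalings. The 2 higher targets therefore stood beside 15 genes of the list, Trp53 among them, that were under 2-fold.

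Upstream regulators and brakes of growth held the 2 lower genes. In the FOXO, PI3K and MYC list 11 of 12 genes were measured. Mxd1, a MAX partner that opposes MYC, was 2.32-fold lower, a log2 difference of -1.21, although another Mxd1 probe was at -0.80. Its relative Mxd4 was at -0.86, Foxo4 at 0.45 and Akt2 at 0.53, although another Akt2 probe was at -0.20. Of the 9 other quiescence and anti-proliferative genes, 8 were lower by any amount and 1 higher, while 59.6% of all gene names were higher. The median of the list was -0.54, and it ran from -0.82 to -0.52 under the 7 other scalings. Since each of these moved the median gene downward, its sign could hardly turn. Klf2, a factor of resting T cells, was 14.5-fold lower, Slfn2 1.95-fold, Foxp1 1.75-fold and Btg1 1.64-fold. Another Foxp1 probe had a log2 difference of -1.47. All 6 proliferation markers were higher by any amount, against 59.6% of all gene names, and their median was 0.54, or 0.26 with spike-ins. Of these, Ccnb1 was 2.88-fold higher, Cdk1 was at 0.65, Top2a at 0.54 and Mki67 at 0.53. The replication genes Pcna and Mcm2 were at 0.01 and 0.12 and turned direction under 6 and 4 of 7 other scalings. In the list of related CDK inhibitors, cyclins and kinases 4 of 5 genes were measured, and Cdkn3, a phosphatase gene that acts on CDKs, was 2.11-fold higher, or 1.98-fold with normexp.

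**Figure D5:**
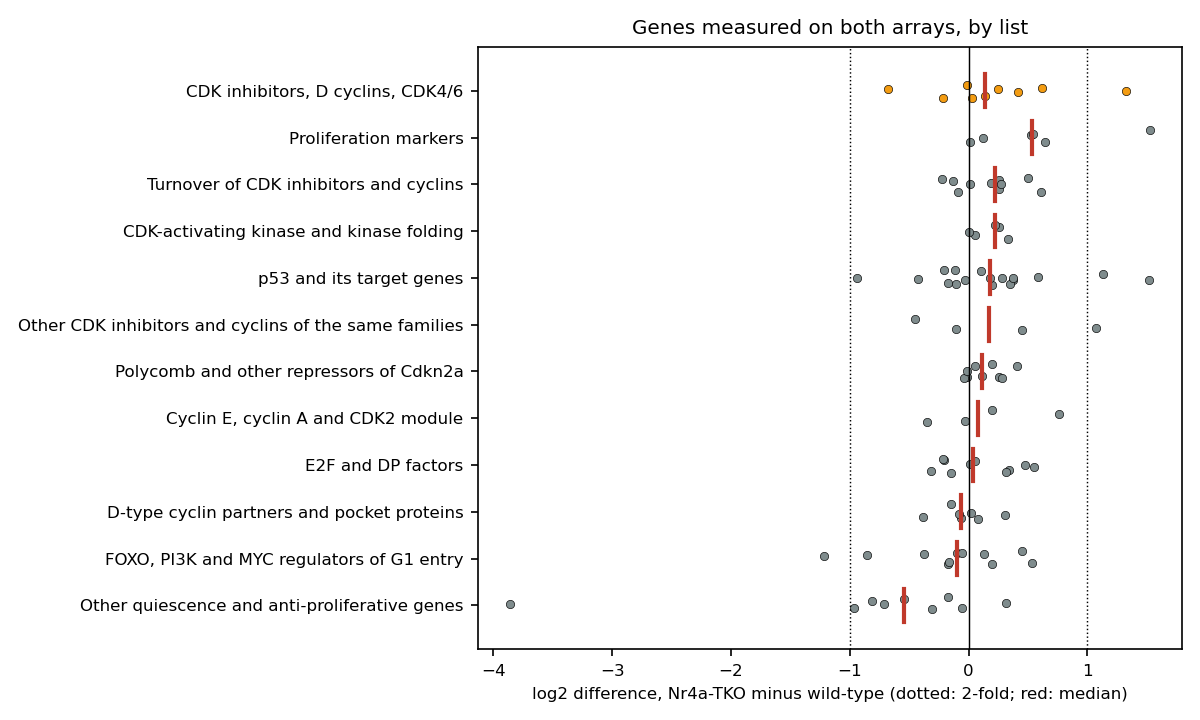
Log2 difference of Nr4a-TKO minus wild-type (horizontal axis) for each gene measured on both arrays, with the 9 measured CDK inhibitors, D-type cyclins and kinases on the top row and 11 lists of related genes below it, ordered by median. Red bars mark medians, which run from -0.54 for quiescence genes to 0.54 for proliferation markers, and dotted lines mark 2-fold.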

How the data were processed

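Total RNA of sorted Treg cells was labelled with Cy3, per the labels' protocols. The deposited intensity values came from Agilent Feature Extraction 10.10.1.1 with spatial and multiplicative detrending, background subtraction and surrogate values for dim spots, on an array annotated on mm9, per the file headers. A second deposited table held log2 values, which equalled the log2 of the processed signal after 1 constant was taken off each array (SD 0.00029 on each), so scale and direction matched. No source used here gives the rule behind the constant. Its column medians were -3.53 for Nr4a-TKO and -3.54 for wild-type.

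Control spots (3671 of 62976) and spots the scanner called outliers (117 in Nr4a-TKO, 156 in wild-type) were left out. Spots of 1 probe were averaged as log2 signals, and the 75th percentile of each array was then subtracted. A gene was represented by its brightest probe and measured where that was well above background on both arrays. Names came through transcript accessions for 27508 probes from a RefSeq table of GRCm38.p6, and 28168 kept the file's name. A bound set the bright array against the higher of the dim probe's signal and the lowest signal well above background. The precision is limited by 1 array per genotype, and no test was run. The counting step was checked on simulated data.

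All 10 members are named, with, from each list of related genes, those past 2-fold and up to 3 others of largest difference; other genes named were chosen after their values were seen. Some marker genes are not reported here by name. The members, lists and motifs were chosen with earlier results of these data known. Alternatives were normexp background correction (offset 50), 7 scalings, of which 1 was the deposited log2 table, a mean of a gene's probes, dropping the filter or raising it to 4 times the lowest signal well above background, and thresholds of 1.5-fold and 3-fold. Python 3.11.15, numpy 2.4.6, pandas 2.3.3, statsmodels 0.14.6, matplotlib 3.10.9, R 4.3.3 and limma 3.58.1 were used.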

Additional observations from a re-analysis of the deposited data

How the results depend on the processing

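No paired analysis was possible because each genotype had 1 array. The count of 1 member at least 2-fold higher, Cdkn1a, and 0 lower held in the 11 alternatives that kept the 2-fold size, and by construction became 2 higher and 1 lower at 1.5-fold and 0 higher at 3-fold. The median of the measured members, 0.14, was -0.034 with quantile normalization, -0.13 with spike-in centring, 0.013 with housekeeping centring, -0.025 with loess and 0.23 with the mean over probes. Spike-in centring shifts every gene by -0.27, and over 9 spike-in probes the difference ran from -0.01 to 0.32. Genes at least 2-fold higher and lower, 741 and 720, were 478 and 457 with normexp, 449 and 1251 with spike-ins, 1988 and 1834 without the filter, and 440 and 440 when the filter was raised. A size of 1.5-fold gave 1965 higher and 1728 lower, and 3-fold gave 288 higher and 283 lower. The cause was not tested for normexp, and the other counts move by construction. Of 100 single differences of members under an alternative, 67 moved by less than 0.080, the spread between spots for a difference. Many of these could not move further. Changing the filter leaves a member's value as it was, as does the mean for a gene with 1 measured probe. Some scalings shift all genes nearly alike, by about -0.0014 (deposited log2 values), -0.013 (array median) and -0.049 (only probes that cleared background). The count is therefore no measure of how stable the members are. The SD between spots had a median of 0.051 in Nr4a-TKO and 0.061 in wild-type over 262 probes. The other 2 probes of Cdkn1a, a comparison added after seeing the data, gave 0.86 and 0.98, under 2-fold. Signal over background limits what can be said of Cdkn2a and Cdkn2b.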
